A study of Mus musculus with 137 samples.

Results

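The comparison described here is the change of the bleomycin effect between day 21 and day 42 in the lungs of young mice. It is the difference of 2 differences, (bleomycin minus saline at day 42) minus (bleomycin minus saline at day 21), on the log2 scale. A value below 0 therefore means that the distance of the bleomycin lungs above saline shrank, or that the distance below saline grew. The libraries were chosen by the age, treatment and day in their labels, which gave 19 lungs, 13.9% of those in the series. They were 5 saline and 4 bleomycin lungs taken 21 days after treatment, and 5 saline and 5 bleomycin lungs taken at 42 days. All came from male C57BL/6J mice of 8 to 12 weeks. The bleomycin mice had received a single agent, bleomycin sulphate at 0.7 mg/kg, into the airway, and the control mice had received saline (NaCl) the same way. The series follows fibrosis and its resolution at 2 ages over 8 weeks. RNA from 20 mg of lung was selected for poly-A tails and sequenced, with 1 library per lung.

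Bleomycin is a drug that breaks DNA. In the mouse lung it kills epithelial and endothelial cells, draws in monocytes that become macrophages, and turns fibroblasts into cells that lay down collagen, elastin and fibronectin. In young mice this scar is known to be largely cleared over the weeks that follow, as fibroblasts stop making matrix, proteases and macrophages degrade it, and the airway and alveolar lining is restored. In whole-lung RNA, fewer cells of a type and less RNA per cell cannot be told apart.

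The libraries held 17.9 to 26 M counted reads, with a median of 21.6 M. Depth was 17.9 to 19.9 M in the bleomycin lungs of day 42 and 21 to 26 M in those of day 21, so these groups did not overlap in depth. Lung identity was present in every library: Sftpc, the surfactant gene of alveolar type 2 cells, lay at 10584 CPM or more (CPM is the read count scaled to library size), and Pecam1, of endothelium, at 616 CPM or more. Marco, of alveolar macrophages, was lowest of the 7 identity markers at 4.24 to 34.7 CPM. A score of circadian clock output genes was 1.27 to 2.07 in bleomycin lungs of day 21, 0.43 to 0.98 in those of day 42, -0.54 to 0.22 in saline lungs of day 21 and -0.57 to 0.83 in those of day 42. Heart muscle transcripts (11 genes, summed) were 81.9 to 194.6 CPM in bleomycin lungs of day 21 against 325 to 675 CPM in their saline controls, and 75.5 to 589 CPM against 279 to 502 CPM at day 42. Fat transcripts (7 genes, summed) were 8.00 to 15.9 CPM in bleomycin lungs of day 21, below all saline lungs of that day at 36 to 48.9 CPM, and 9.45 to 38 CPM at day 42. The part of clock phase, depth and adjoining tissue in the results was not tested, except that a fit with the clock score as a covariate is given among the alternatives.

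The bleomycin effect was lower at day 42 than at day 21 for 240 genes. All 240 had an effect above 0 at day 21, against 49.5% of all genes. At day 42, 8 of the 240 were called below saline (3.33%, near the 2.88% of all genes). Among the 240 were 5 of 10 fibrillar collagens, 5 of 16 elastic fibre genes, 4 of 18 matrix proteases and 5 of 20 macrophage markers. The effect changed upward for fewer genes, of which 98.3% stood below saline at day 21 (50.5% of all genes), among them Cyp4b1 of club cells and the transcription factor Klf15. In all 356 of 18396 genes were called (1.94%), 1.30% lower and 0.631% higher, by edgeR's quasi-likelihood test with Benjamini-Hochberg adjusted p under 0.05, which is what "called" means throughout. Among the 240, the median effect went from 1.05 at day 21 to 0.17 at day 42. Among the genes called higher it went from -0.85 to -0.12. The effects of both days make up the change that was called, so these shares and medians are not separate evidence of it. The median change over all tested genes was -0.01, and 51.1% of all genes lay below 0. At the threshold, the last gene called was Tns2 at 0.46 and the first not called was Gm11730 at 1.67.

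Nearly all called differences between the 2 days were among bleomycin lungs. Between day 42 and day 21, 3326 genes (18.1%) differed among bleomycin lungs, 1873 lower (10.2%) and 1453 higher (7.90%). Among saline lungs 1 gene did (0.00544%), with 1129 genes at an unadjusted p under 0.05. That gene was Rcan2, named after its value was seen. The saline count was 157 without saline day 42 replicate 4, whose clock score was 0.83, and 54 with DESeq2. Bleomycin differed from saline in 6678 genes at day 21 (36.3%, made up of 18.8% higher and 17.5% lower) and in 1401 genes at day 42 (7.62%, made up of 4.73% higher and 2.88% lower). The day 42 count was 698 without bleomycin day 42 replicate 4.

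The numbers of genes called in the change rested on individual lungs. With 1 lung left out, between 10.4% and 98.6% of the 356 genes were still called. The lowest share followed the removal of bleomycin day 21 replicate 2, when 38 genes were called in all, and the highest the removal of bleomycin day 42 replicate 4, when 766 were. Without both bleomycin lungs that lay farthest from their groups (day 21 replicate 3 and day 42 replicate 4), 445 genes were called, 313 of them among the 356. With the clock score as a covariate, 169 were called, 164 of them among the 356. None of the 356 genes had the other sign in any alternative fit that gave it a value. The fits reuse nearly the same lungs and the genes were chosen by their call, so a kept sign is not separate support. Sfrp1, Serpina3i, Mfap4, Adamts2, Mmp2, Apoe, Serpind1 and Klf15 are the named genes that were called in all 26 alternative fits, and for several other genes the number of fits that kept the call is given.

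**Figure D1:**
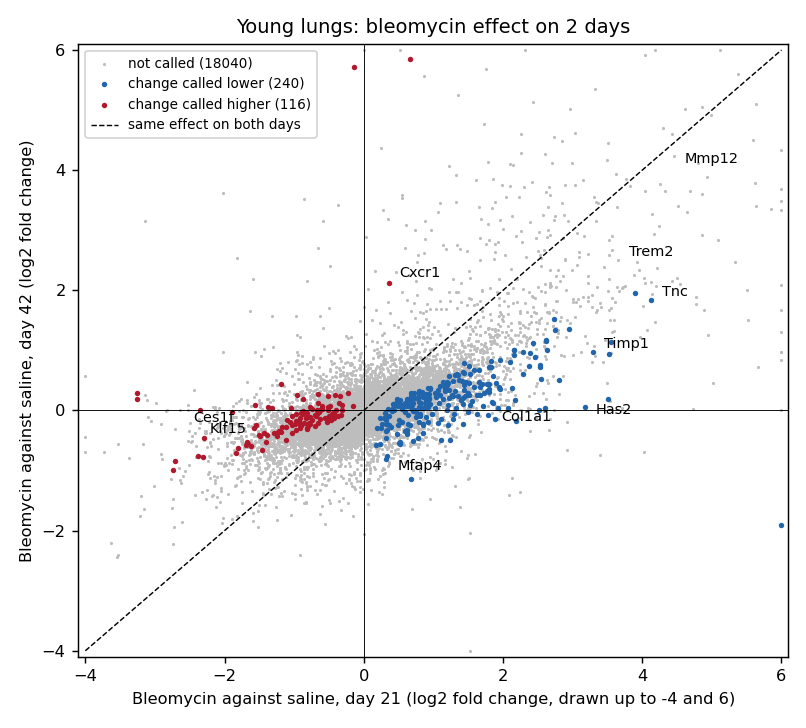
Each point is 1 of 18396 genes, with the bleomycin effect (log2 fold change against saline) at day 21 on the horizontal axis and at day 42 on the vertical axis. Blue points (240) are called lower in the change and red points higher. Blue points lie to the right of 0 and below the dashed line of equal effects, most of them near 0 at day 42. Values beyond -4 or 6 are drawn at those limits.

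The fibrillar collagens, the rope-like collagens of scar and of normal connective tissue, stood well above saline at day 21 and near it at day 42. Of 10 genes tested, 5 were called lower and none higher, all 10 lay below 0, and the median change was -1.43. The median effect went from 1.60 at day 21 to 0.18 at day 42, and 1 of the 10 was still called higher at day 42 (4.73% of all genes). Col1a1 (chr11:94936224-94953042, GRCm38), which encodes the main chain of type I collagen, shows the pattern lung by lung. Its saline lungs of day 21 held 503, 493, 386, 446 and 412 CPM, and its bleomycin lungs of day 21 held 1986, 1933, 1296 and 1249 CPM. At day 42 the saline lungs held 391, 475, 430.4, 414 and 488 CPM and the bleomycin lungs 496, 397, 477, 588 and 445 CPM. Every bleomycin lung of day 21 was above every other lung, while the groups of day 42 overlapped. Its change was -1.72 ± 0.44 (standard error, edgeR adjusted p = 0.0275, called in 18 of 26 fits), from an effect of 1.85 to one of 0.13.

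The partner chain Col1a2 changed by -1.44 ± 0.39 (adjusted p = 0.034, called in 15 of 26 fits). Col3a1, of the type III collagen that accompanies type I in early scar, held 2301 to 3211 CPM in bleomycin lungs of day 21 and 733 to 1297 CPM in those of day 42, against 733 to 958 CPM in the saline lungs of both days. Its bleomycin lungs of the 2 days did not overlap, and its change was -1.41 ± 0.34 (adjusted p = 0.02, called in 25 of 26 fits). Col5a1 and Col5a2, of the type V collagen that starts the fibril, changed by -1.52 ± 0.40 and -1.44 ± 0.41. The count of 5 was 0 to 6 with 1 lung left out and 1 with the clock covariate. Among 12 other interstitial collagens 4 were called lower, with a median of -0.80. These were Col6a2 at -0.91, Col6a1 at -0.82, Col18a1 at -0.96 and Col16a1 at -0.79. Col6a2 and Col6a1 were called in 25 and 24 of 26 fits and Col18a1 in 6. Col6a1 and Col6a2 belong to the beaded microfibrils of type VI.

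Elastic fibre genes went the same way, with 5 of 16 called lower, none higher and a median of -0.62. Eln encodes elastin, the rubber-like core of the fibre. Its bleomycin lungs held 3185, 3052, 3187 and 2501 CPM at day 21 and 786, 690.0, 676, 1379.8 and 836 CPM at day 42, against 483 to 632 CPM in the 10 saline lungs. All bleomycin lungs of day 42 lay below those of day 21 and above every saline lung. The change was -1.65 ± 0.43 (adjusted p = 0.0297, called in 19 of 26 fits), and the effect left at day 42, 0.73 ± 0.30, was not called (adjusted p = 0.125). Fbn1, the fibrillin scaffold, changed by -1.40 ± 0.36, Emilin1 by -0.83 ± 0.19 and Efemp2, which helps assemble the fibre, by -0.59 ± 0.16.

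Mfap4, a microfibril-associated glycoprotein that binds elastin and collagen, went from above saline to below it. Its saline lungs of day 21 held 399.7, 431, 425, 493 and 437 CPM and its bleomycin lungs 608, 514, 497 and 586 CPM. At day 42 the saline lungs held 395, 411, 509, 426 and 431 CPM and the bleomycin lungs 217, 332, 289, 247 and 203 CPM. The groups did not overlap on either day and stood in opposite order. The change was -1.09 ± 0.22 (adjusted p = 0.0072). The effect at day 42 was -0.75 ± 0.15 (adjusted p = 0.000308), and in separate lungs of day 56 it was -0.57 (adjusted p = 0.00944). The effect at day 21, 0.34, was not called (adjusted p = 0.0962). Mfap4 was among the 8 of the 240 genes called lower than saline at day 42 (3.33%, near the 2.88% of all genes).

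Of 17 matrix glycoproteins 3 were called lower, with a median of -0.88. Tnc encodes tenascin C, a glycoprotein of wounds and developing tissue. Its bleomycin lungs held 463, 538, 296 and 249 CPM at day 21 and 72.7, 54.8, 49.3, 106.3 and 70.9 CPM at day 42, and the 10 saline lungs held 16 to 27.2 CPM. The bleomycin groups did not overlap with each other or with saline. The change was -2.29 ± 0.61 (adjusted p = 0.0327, called in 17 of 26 fits), and the effect at day 42 was still 1.84 ± 0.43 (adjusted p = 0.00176). Fn1, fibronectin, changed by -1.78 ± 0.48 (adjusted p = 0.0363, called in 14 of 26 fits) from an effect of 2.53 to 0.75. Sparc, a collagen-binding protein, changed by -0.88 ± 0.23. In the basement membrane, Col4a1 at -0.92 ± 0.25 and Lamc1 at -0.71 ± 0.19 were called among 21 genes, and among 10 proteoglycans Bgn (biglycan) was, at -0.74 ± 0.22.

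Has2, which encodes a hyaluronan synthase, had the largest fall of the genes named by size. Its bleomycin lungs of day 21 held 6.74, 7.67, 5.22 and 6.47 CPM, those of day 42 held 0.900, 0.881, 0.825, 0.660 and 0.830 CPM, and the 10 saline lungs held 0.543 to 1.27 CPM. The bleomycin lungs of day 42 lay within the saline range. The change was -3.12 ± 0.76 (adjusted p = 0.02, called in 25 of 26 fits), from an effect of 3.18 to 0.06. These are low levels, and the fitted value depends on few reads in the lungs at the lower level.

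**Figure D2:**
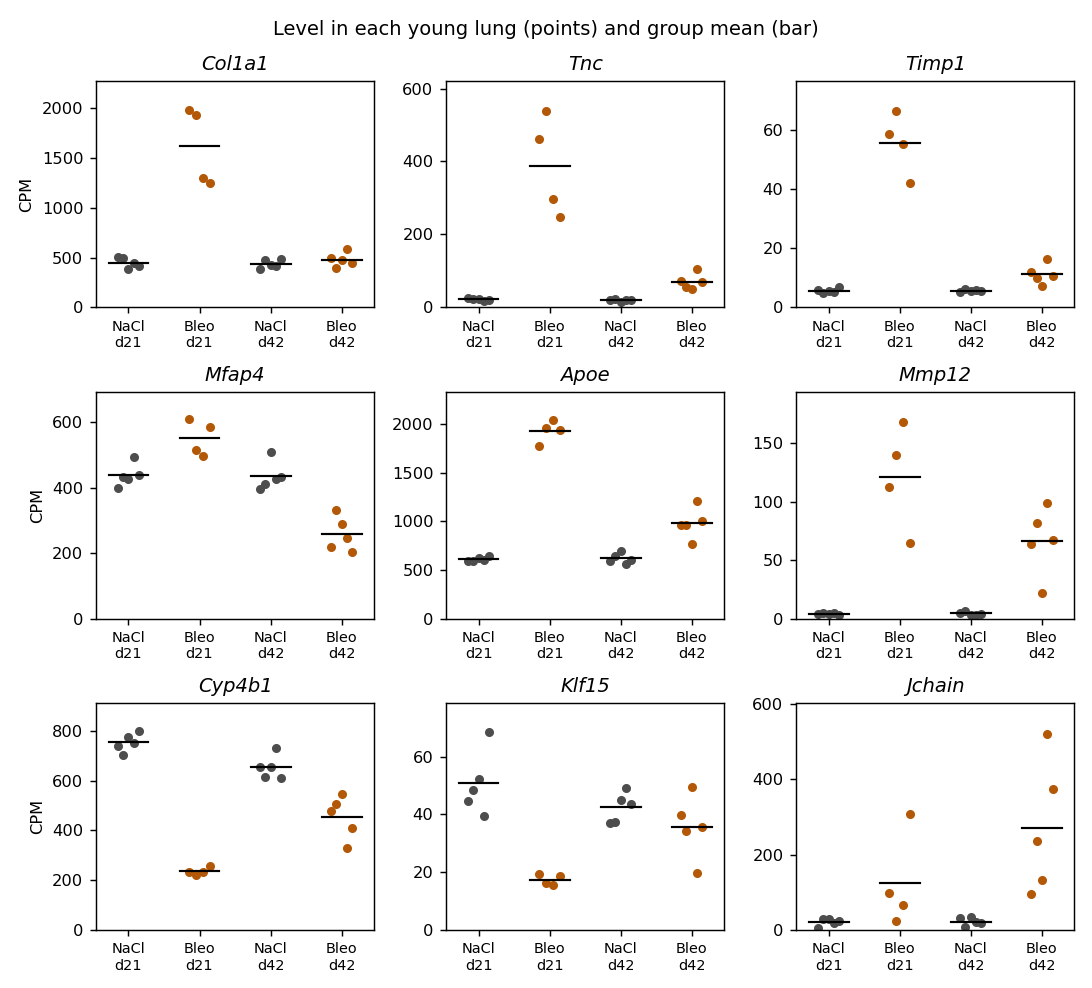
CPM in each lung (points) and the mean of its group (bar) for 9 genes, on linear axes from 0, with saline (NaCl) and bleomycin lungs of day 21 (d21) and day 42 (d42). Col1a1, Tnc, Timp1 and Apoe are high in bleomycin lungs of day 21 and lower at day 42, Mfap4 drops below saline, Mmp12 and Jchain stay high, and Cyp4b1 and Klf15 are low at day 21 only or mainly.

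Promoter letters are shown for Col1a2 and Tnc because both were called lower and belong to the fibrillar collagen and matrix glycoprotein lists. They are the 250 bases before the RefSeq transcription start (GRCm38.p6), written 5′ to 3′ on the gene's strand, at chr6:4505368-4505617 (plus strand) and chr4:64047016-64047265 (minus strand). Capitals mark matches, on either strand, to 4 motifs. The SMAD element was searched as its core, CAGAC. The letters CCAAT stood for the box of that name, to which the factor NF-Y binds. The TATA box was searched as TATAAA. For the cell cycle homology region, an element of division genes, the core TTTGAA was used. No match overlapped another in the windows shown. The RefSeq start used for Col1a2 lay 804 bases from the GENCODE start, while for Tnc they were the same.
Col1a2: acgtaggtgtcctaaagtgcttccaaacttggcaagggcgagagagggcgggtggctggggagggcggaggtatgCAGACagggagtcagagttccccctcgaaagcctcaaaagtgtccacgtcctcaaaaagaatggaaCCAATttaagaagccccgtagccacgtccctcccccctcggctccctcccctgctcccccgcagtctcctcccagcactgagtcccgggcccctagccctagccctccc
Tnc: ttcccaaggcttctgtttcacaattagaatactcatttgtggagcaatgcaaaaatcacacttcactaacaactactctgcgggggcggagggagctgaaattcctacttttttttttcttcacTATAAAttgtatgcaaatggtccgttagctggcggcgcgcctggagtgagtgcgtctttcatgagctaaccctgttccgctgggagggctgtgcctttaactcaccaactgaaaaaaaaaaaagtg
The Col1a2 window held the SMAD core 175 bases before the start and 1 match to the CCAAT box, and the Tnc window held 1 TATA box. The SMAD core was present in 42.2% of all 32851 promoter windows, in 5 of the 7 fibrillar collagen genes with a window, and in 41.4% of the 169 genes called lower that had one. The TATA box was present in 12.4% of all windows and in 4 of the 9 matrix glycoprotein genes with a window. Over the genes called lower as a whole, the share with the SMAD core was thus near that of all promoter windows. Every window was counted for the latter and 1 window per gene for the gene sets, so the units differ.

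Genes that process and cross-link collagen changed less as a group, with a median of -0.43, 4 of 24 called lower and 1 higher. Adamts2, which trims the ends of procollagen, held 206 to 246 CPM in bleomycin lungs of day 21 and 62.4 to 112.6 CPM in those of day 42, against 63.5 to 82.8 CPM in saline. It was above all other lungs at day 21 only, and changed by -1.37 ± 0.29 (adjusted p = 0.00917). The cross-linking oxidases Loxl2 and Loxl1 changed by -1.26 ± 0.36 and -0.87 ± 0.21, and the collagen chaperone Fkbp10 by -0.98 ± 0.27. P3h2, a prolyl hydroxylase that modifies collagen, changed upward by 0.63 ± 0.17 (adjusted p = 0.035, called in 13 of 26 fits). Its bleomycin lungs held 14.5 to 18.4 CPM at day 21 and 16.8 to 20.1 CPM at day 42, and its saline lungs 22.7 to 26.5 CPM and 13.3 to 24.4 CPM, so the bleomycin ranges overlapped and the saline median was lower at day 42. Lox itself, at -1.15, was not called (adjusted p = 0.107).

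Matrix-degrading proteases lay below 0 as the matrix genes did. Of 18 tested, 4 were called lower and 17 lay below 0, with a median of -0.67, and 8 of the 18 were still called higher than saline at day 42 (4.73% of all genes). Mmp2, a gelatinase made by fibroblasts, held 731, 742, 533 and 569 CPM in bleomycin lungs of day 21 and 247, 201, 229.9, 325 and 234 CPM in those of day 42, against 127.6 to 170.4 CPM in the 10 saline lungs. The 3 levels did not overlap. Its change was -1.30 ± 0.27 (adjusted p = 0.0072), and it kept an effect of 0.81 ± 0.18 at day 42 (adjusted p = 0.0014). Mmp14, the membrane protease that activates Mmp2, changed by -1.25 ± 0.29, Adam12 by -2.03 ± 0.52 and Ctsb, a lysosomal protease, by -0.77 ± 0.21. Adamts12, outside the list, changed by -2.56 ± 0.71 (called in 11 of 26 fits).

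Some inhibitors of proteases were called lower as well. Timp1, an inhibitor of matrix metalloproteases, held 58.6, 66.4, 55.2 and 42.1 CPM in bleomycin lungs of day 21 and 12.1, 9.80, 7.33, 16.4 and 10.5 CPM in those of day 42, while the 10 saline lungs held 4.97 to 6.75 CPM. All bleomycin lungs of day 42 were still above all saline lungs, but that effect of 0.98 was not called (adjusted p = 0.19). The change was -2.31 ± 0.63 (adjusted p = 0.0363), called in 13 of 26 fits. Serpina3n and Serpine2 changed by -1.43 ± 0.40 and -1.03 ± 0.29, so 3 of 12 inhibitors were called. Serpina3i, from the same gene cluster as Serpina3n, changed by -2.02 ± 0.39. Reads may be shared among these near-identical serpin copies, so their values are uncertain.

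Of the signals that act on fibroblasts, Tgfb1 and Tgfb2, ligands of the TGF-beta pathway, changed by -0.42 ± 0.11 and -0.63 ± 0.18, as 2 of 15 genes of that pathway called. Tgfb1 was called in 18 of 26 fits and Tgfb2 in 6. The count called lower was 0 with the clock covariate and 0 to 5 with 1 lung left out. It was 5 with DESeq2 (1.92% of genes tested) and 8 with the contrasted groups alone (6.57%). Sfrp1, a secreted binder of Wnt proteins, held 171.9, 174.2, 110.9 and 111.2 CPM in bleomycin lungs of day 21 and 42.7, 26.5, 36.6, 54.7 and 36.9 CPM in those of day 42, against 21.1 to 31.6 CPM in saline. Its change was -2.03 ± 0.44 (adjusted p = 0.0103). Wnt5a, a Wnt ligand, changed by -0.95 ± 0.24, and these were the 2 called among 19 Wnt and BMP genes. Grem1, a BMP antagonist, had a change of -2.28 that was not called (adjusted p = 0.247). Its bleomycin lungs held 16.1 to 28.1 CPM at day 21 and 1.29 to 3.45 CPM at day 42, without overlap. Of 26 fits, only that on the contrasted groups alone called it (edgeR adjusted p = 0.000466). Of 13 contractile genes of myofibroblasts and smooth muscle none was called, and the median was 0.19. Acta2, smooth muscle actin, changed by 0.15 with a 95% interval of -0.40 to 0.69, and its effect at day 21 was -0.29 and not called.

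**Figure D3:**
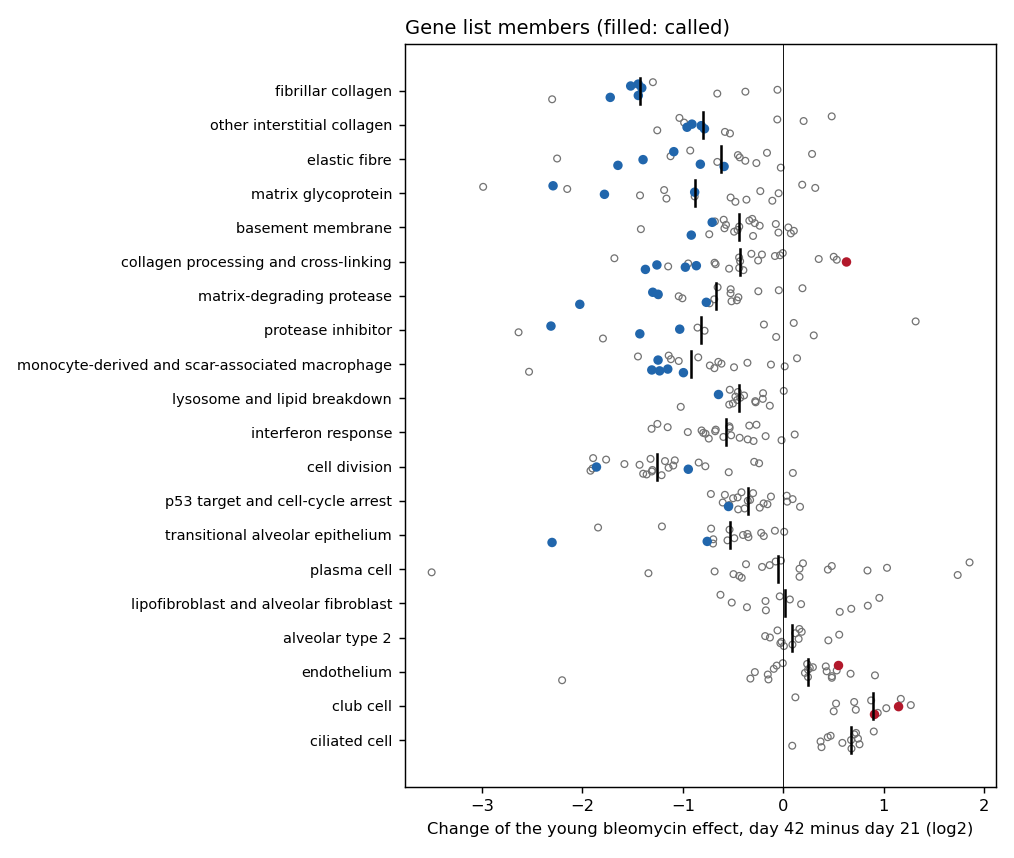
Change of the young bleomycin effect from day 21 to day 42 (log2, horizontal axis) for each tested member of 20 gene lists. Filled points are called lower (blue) or higher (red), open points are not called, and the black bar is the list's median. The 10 fibrillar collagens all lie below 0, with a median of -1.43, and the 12 club cell genes all lie above 0, with a median of 0.89. A value beyond -3.5 is drawn at that limit.

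Macrophage genes mostly stayed above saline at day 42. Of 20 markers of monocyte-derived and scar-associated macrophages, 5 were called lower, 18 lay below 0 and the median was -0.92, yet 14 were still called higher than saline at day 42 (4.73% of all genes), when the median effect was 0.72. Apoe, a lipid carrier that these cells secrete, held 1781, 1964, 2045 and 1942 CPM in bleomycin lungs of day 21 and 961, 965, 772, 1207 and 1009 CPM in those of day 42, against 559 to 691 CPM in the 10 saline lungs. The 3 levels did not overlap. The change was -0.99 ± 0.22 (adjusted p = 0.0105), and an effect of 0.67 ± 0.15 remained (adjusted p = 0.00129). The chains of complement C1q moved together, C1qa at -1.23 ± 0.32, C1qb at -1.31 ± 0.33 and C1qc at -1.15 ± 0.31. The scavenger receptor Msr1 changed by -1.94 ± 0.52 from 3.90 to 1.96 (called in 15 of 26 fits), and the complement receptor C3ar1 by -1.40 ± 0.35.

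Several of the best known markers of scar macrophages had no called change. Mmp12, macrophage elastase, held 112.8, 140.2, 167.9 and 64.3 CPM in bleomycin lungs of day 21 and 64.1, 81.8, 22.0, 98.5 and 67.3 CPM in those of day 42, against 3.10 to 6.27 CPM in saline. The bleomycin groups overlapped with each other and both lay above saline. Its change was -1.04 with a 95% interval of -2.46 to 0.38 (adjusted p = 0.482), and its effect at day 42 was 3.88 ± 0.52 (adjusted p = 2.79e-08). Trem2, a lipid-sensing receptor, and Spp1, osteopontin, had effects of 2.51 and 2.48 at day 42. Their changes were -1.14 ± 0.38 (adjusted p = 0.0883) and -1.45 ± 0.51 (adjusted p = 0.108). For Trem2 the bleomycin lungs held 46.9 to 71.2 CPM at day 21 and 13.2 to 45.2 CPM at day 42. For Spp1 they held 1466 to 2925 CPM at day 21 and 269 to 1265 CPM at day 42. Unlike for Mmp12, the bleomycin groups of these genes did not overlap. The change of each was called in 2 of 26 fits, and that of Mmp12 in 0. Of 16 lysosome and lipid breakdown genes, 13 were still called higher at day 42 (4.73% of all genes). None of 15 alveolar macrophage genes was called (median 0.09).

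Cell division genes had one of the larger median shifts but few calls in the main fit. Of 24 genes, 23 lay below 0 with a median of -1.26, 2 were called, and the median effect went from 1.45 at day 21 to 0.17 at day 42. The count of 2 was 0 to 7 with 1 lung left out and 0 with the clock covariate. It was 18 with the contrasted groups alone (6.57% of genes tested) and 11 with young libraries alone (2.87%). In the comparison of bleomycin lungs of the 2 days alone, 15 of the 24 were called lower, against 10.2% of all genes. Cenpf, a kinetochore protein of dividing cells, held 3.59, 3.38, 3.31 and 5.99 CPM in bleomycin lungs of day 21 and 1.13, 1.65, 1.29, 2.03 and 1.71 CPM in those of day 42. The bleomycin lungs of day 42 lay within the saline range of 0.890 to 2.26 CPM. Its change was -1.86 ± 0.53 (adjusted p = 0.0424) and that of Cdc20, which triggers separation of chromosomes, was -0.95 ± 0.27 (adjusted p = 0.04). Each was called in 9 of 26 fits. Top2a, the topoisomerase of dividing cells, had -1.76 and was not called (adjusted p = 0.0797), though it was in 4 of 26 fits.

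The promoters of the 2 called division genes are shown for the CCAAT box that this group shares. They are the 250 bases before the RefSeq start (GRCm38.p6) at chr1:189688087-189688336 (minus strand) and chr4:118437344-118437593 (minus strand), with the same 4 motifs in capitals.
Cenpf: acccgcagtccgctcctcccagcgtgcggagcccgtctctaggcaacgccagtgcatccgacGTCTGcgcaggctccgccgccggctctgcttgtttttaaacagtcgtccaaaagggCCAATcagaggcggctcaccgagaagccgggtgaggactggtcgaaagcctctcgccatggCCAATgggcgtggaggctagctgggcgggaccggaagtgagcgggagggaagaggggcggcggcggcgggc
Cdc20: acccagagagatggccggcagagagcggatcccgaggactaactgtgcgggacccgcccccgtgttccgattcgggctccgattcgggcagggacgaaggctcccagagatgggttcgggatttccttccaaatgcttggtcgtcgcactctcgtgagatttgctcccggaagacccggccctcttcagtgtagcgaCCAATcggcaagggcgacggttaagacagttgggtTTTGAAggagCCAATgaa
Each window held the CCAAT box at 2 places, the nearer one 71 bases before the start in Cenpf and 8 bases before it in Cdc20. The Cdc20 window also held the cell cycle element, 18 bases before the start, and the Cenpf window held the SMAD core on the other strand, 188 bases before it. The CCAAT box was present in 16 of the 19 division genes with a window (84.2%) and in 33.8% of all windows. The cell cycle element was present in 7 of the 19 (36.8%) and in 16% of all windows. A match is a description of these letters and not a measured binding site.

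Few genes of growth arrest were called. Of 21 p53 targets and arrest genes, only Ccng1 was called, at -0.55 ± 0.16 (7 of 26 fits), and the median was -0.35. Cdkn2a, the senescence gene that encodes p16, held 2.99, 2.07, 3.21 and 1.69 CPM in bleomycin lungs of day 21 and 0.957, 1.32, 1.03, 2.95 and 1.71 CPM in those of day 42, with saline lungs at 0.418 to 1.03 CPM. The bleomycin groups overlapped with each other, and that of day 42 also with saline. Its change was -0.16 with a 95% interval of -1.22 to 0.91, and its effect at day 42, 1.47 ± 0.38, was called (adjusted p = 0.00464). Markers of the transitional alveolar epithelium, the stretched cell state between alveolar type 2 and type 1, had a median change of -0.54 and 2 of 17 called. Cldn4, a tight junction protein of that state, held 41.3, 37.4, 37.4 and 26.5 CPM in bleomycin lungs of day 21 and 6.19, 7.49, 5.83, 11.5 and 9.13 CPM in those of day 42, against 3.56 to 8.09 CPM in saline. Only the bleomycin lungs of day 21 stood apart, and the change was -2.30 ± 0.61 (adjusted p = 0.0329, called in 16 of 26 fits). Clu changed by -0.76 ± 0.21, and Krt8, at -0.40 ± 0.20, was not called (adjusted p = 0.288).

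Most genes that changed upward (98.3%, against 50.5% of all genes) stood below saline at day 21, a value that enters the call. Of the genes called higher, 12 were still called below saline at day 42 (10.3%, against 2.88% of all genes). Of 12 club cell genes, which mark the secretory cells of the small airways, all lay above 0 with a median of 0.89, and 2 were called higher. Cyp4b1, a cytochrome P450 of these cells, held 232, 222, 233 and 256 CPM in bleomycin lungs of day 21 and 478, 505, 545, 327 and 409.9 CPM in those of day 42, while the saline lungs held 612 to 799 CPM. The bleomycin groups did not overlap, which was a condition for genes named by size, and both lay below saline. The change was 1.15 ± 0.29 (adjusted p = 0.0271, called in 20 of 26 fits). Aox3, an aldehyde oxidase, changed by 0.91 ± 0.25 (called in 12 of 26 fits). Scgb1a1, the main secreted protein of club cells, changed by 0.70 ± 0.33 and was not called (adjusted p = 0.247). The 13 ciliated cell genes also all lay above 0, with a median of 0.67 and none called. With the contrasted groups alone 5 of them were called higher (4.8% of genes tested). Both airway types, and the heart muscle and fat transcripts given above, were lower as groups in the bleomycin lungs of day 21. Lung by lung they did not rank alike that day. Replicate 3 had the highest club cell score (6.29, the list's mean log2 CPM) and the lowest heart muscle (2.1) and fat (-0.62) scores. At day 42, bleomycin replicate 4 had the lowest score of its group for all 3 lists (6.17, 1.95 and -0.74). The share of airway in the 20 mg pieces was not tested.

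Klf15, a transcription factor of glucocorticoid response and of lipid and amino acid metabolism, was called in all 26 fits. Its saline lungs of day 21 held 44.7, 48.3, 52.3, 39.6 and 68.7 CPM and its bleomycin lungs 19.3, 16.2, 15.5 and 18.6 CPM. At day 42 the saline lungs held 36.9, 37.2, 45, 49.3 and 43.7 CPM and the bleomycin lungs 39.7, 34.1, 49.4, 19.8 and 35.6 CPM. Bleomycin day 42 replicate 4 stayed near the day 21 level, and the others lay near or within the saline range. The change was 1.29 ± 0.28 (adjusted p = 0.0103), and 1.35 with the clock covariate. Serpind1, heparin cofactor II, had the smallest adjusted p of the named rises, with a change of 1.44 ± 0.30 (adjusted p = 0.00806).

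Other genes were named as the largest rises among called genes above a mean log2 CPM of 1. Predicted genes, pseudogenes and antigen receptor segments were skipped. For these rises, and for the falls named by size, no overlap between the bleomycin lungs of the 2 days was a condition and not a result. Pon1, paraoxonase, held 7.51 to 15.6 CPM in bleomycin lungs of day 21 and 18.8 to 41.8 CPM in those of day 42 against 41.8 to 63.3 CPM in saline, and changed by 1.53 ± 0.41 (adjusted p = 0.0345, 14 of 26 fits). Ces1f, a carboxylesterase with close copies in the genome, changed by 1.83 ± 0.51 (11 of 26 fits) and Fabp12, of the fatty acid binding proteins, by 1.62 ± 0.42 (21 of 26 fits). Ankrd63 had the largest rise named, 1.89 ± 0.53 (10 of 26 fits). Fgfbp1, a carrier of fibroblast growth factors, changed by 1.17 ± 0.27 and was still below saline at day 42 (-0.63, adjusted p = 0.0168). In endothelium, Tek, the angiopoietin receptor, was the 1 gene called of 22, at 0.55 ± 0.16 (6 of 26 fits).

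Cxcr1 was 1 of 3 genes called higher in the change that were also called higher than saline at day 42 (2.59%, below the 4.73% of all genes). This chemokine receptor held 3.03, 1.87, 2.68 and 3.19 CPM in bleomycin lungs of day 21 and 9.06, 7.32, 4.08, 12.2 and 10.4 CPM in those of day 42, with the 10 saline lungs at 1.60 to 2.83 CPM. All bleomycin lungs of day 42 lay above all other lungs. The change was 1.77 ± 0.47 (adjusted p = 0.0329, called in 16 of 26 fits), from an effect of 0.36 to 2.13. In the lungs of day 35 and day 56 its effect was 1.94 and 1.90. None of 10 neutrophil genes was called, and their median change was -0.16.

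Of the 871 genes called higher than saline at day 42, 51 had a called change (5.86%, against 1.94% of all genes). Several lists that differed from saline on both days had no gene called in the change. Plasma cell genes, of antibody-secreting cells, had a median effect of 1.24 at day 21 and 1.48 at day 42, with 12 and 11 of 20 called higher (18.8% and 4.73% of all genes on those days) and none called in the change. Jchain, which joins antibody units, held 97.9, 23.4, 66.6 and 309 CPM in bleomycin lungs of day 21 and 94.5, 237, 132.3, 522 and 374 CPM in those of day 42, against 3.95 to 32.8 CPM in saline. The spread within groups was wide, and its change was 1.03 with a 95% interval of -0.63 to 2.70. Markers of lipofibroblasts and alveolar fibroblasts had a median effect of -0.58 at day 21, when 8 of 12 were called lower than saline (17.5% of all genes), and of -0.49 at day 42, when 9 were (2.88%), and 2 were called higher on each day. None was called in the change. Tcf21, a transcription factor of these fibroblasts, held 51.5 to 58.1 CPM in bleomycin lungs of day 21 and 32 to 63.8 CPM in those of day 42, below all saline lungs at 74.9 to 103.2 CPM. Its change was -0.04 with a 95% interval of -0.50 to 0.43.

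Lungs of the other days, none of which entered the rule, were used to follow the same genes. Of the 240 genes, 215 (89.6%) were called higher than saline at day 14, against 20.1% of all genes. Day 14 had a median effect of 0.91 over the 240, day 28 one of 0.63, day 35 one of 0.59 and day 56 one of 0.28. In the change from day 14 to day 56, measured in these separate lungs, 231 of the 240 lay below 0 (96.2%, against 52.4% of all genes) and 41.7% were called lower (against 3.15%). Of the genes called higher, 98 (84.5%, against 47.6% of all genes) lay above 0 in the change from day 14 to day 56, and 12 were called higher there (10.3%, against 1.36%). In the other direction, 3696 genes were called higher at day 14, and 3417 of them (92.5%, against 51.1%) lay below 0 in the change from day 21 to day 42, with 215 called (5.82%).

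Some of the called genes still differed from saline at day 56. Of the 240 genes, 48 were called higher than saline at day 42 (4.73% of all genes) and 85 at day 56 (7.91% of all). Of the genes called higher in the change, 12 were called lower than saline at day 42 (2.88% of all genes) and 47 at day 56 (8.30% of all). Group sizes and lungs differ between days, so these counts do not measure a trend. Tnc had an effect of 1.95 (adjusted p = 0.000752) at day 56 and Mmp2 one of 0.84 (adjusted p = 0.000924), near their values at day 42. Col1a1 had an effect of 0.05, and Has2 one of 0.10, neither of them called. Klf15 stood at -0.55 and Cyp4b1 at -0.73 (adjusted p = 0.011).

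**Figure D4:**
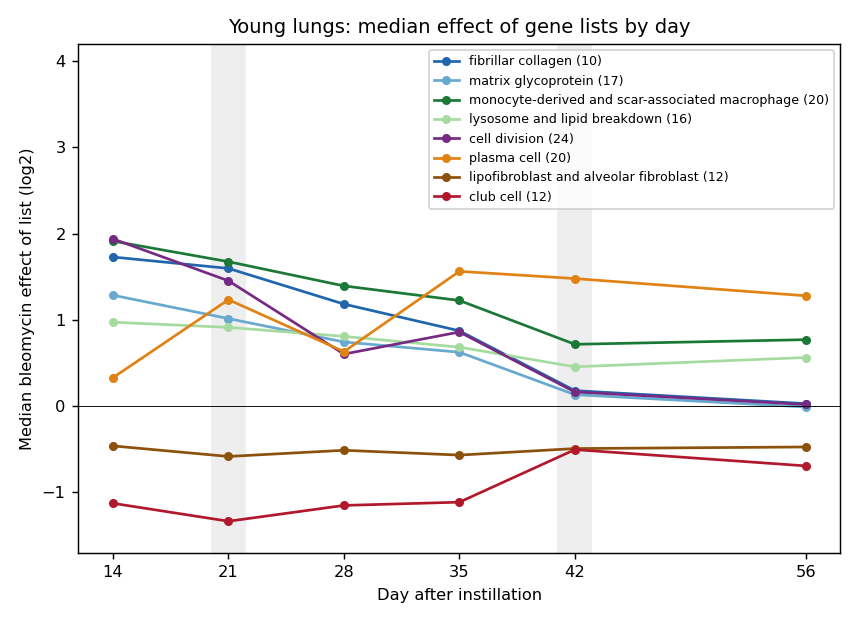
Median bleomycin effect (log2, vertical axis) of 8 gene lists in young lungs at days 14, 21, 28, 35, 42 and 56 (horizontal axis), with the number of genes in brackets and days 21 and 42 shaded. Fibrillar collagen goes from 1.60 at day 21 to 0.18 at day 42, club cell genes from -1.33 to -0.50, and plasma cell and lipofibroblast genes show no drop toward 0. Each day is a separate set of lungs.

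Old lungs gave the same comparison in 23 other libraries, from mice of 21 months given bleomycin at 0.63 mg/kg or saline, so age and dose cannot be told apart. In them 387 genes (2.10%) were called, and no gene was called in the difference between the young and old changes (0% of 18396, edgeR, 746 at an unadjusted p under 0.05, 5 called with DESeq2). The old change lay below 0 for 228 of the 240 genes (95%, against 51.3% of all) and above 0 for 93.1% of those called higher. Of the 240, 29 were called lower in old lungs (12.1%, against 1.61%). The median old change of the 240 was -0.39 against -0.88 in young lungs, but the genes were chosen on the young values, which alone makes the young median larger. Col1a1 changed by -1.34 ± 0.40 in old lungs, and the young minus old difference was -0.38 ± 0.60. Has2 changed by -3.08 ± 0.70 in old lungs against -3.12 in young. Division genes had a median of -2.28 in old lungs and -1.26 in young, with 22 of 24 called lower in old lungs (1.61% of all genes) and 2 in young (1.30%). These counts are from the main fit, and the young count was 18 with the contrasted groups alone (6.57% of genes tested). The young minus old difference was not called for any of them with edgeR. Cenpf changed by -2.99 ± 0.47 and Cdc20 by -1.67 ± 0.24 in old lungs. Spp1 and Trem2 had old changes of -0.26 ± 0.46 and -0.34 ± 0.33.

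**Figure D5:**
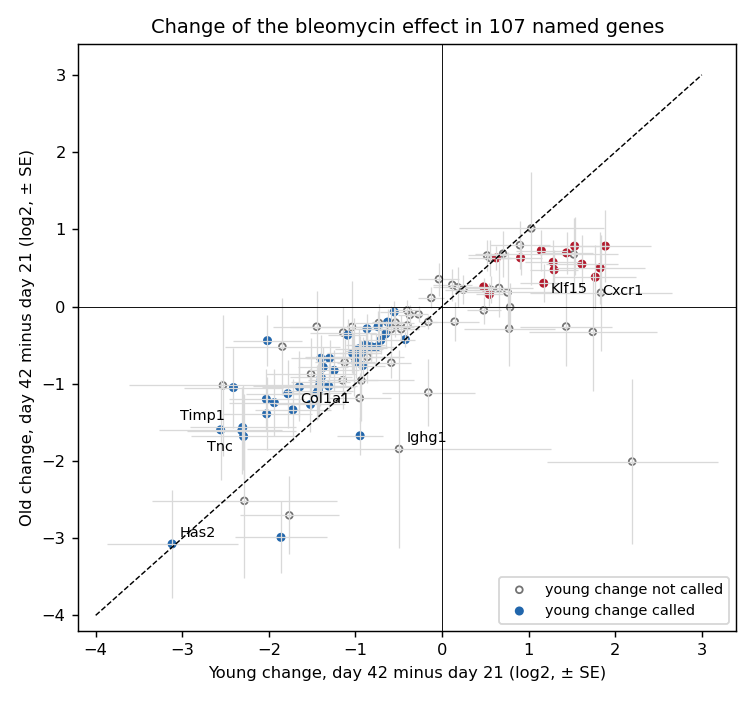
Change of the bleomycin effect from day 21 to day 42 in young lungs (horizontal axis) and old lungs (vertical axis) for the named genes, each log2 with its standard error. Filled points are called in young lungs and the dashed line marks equal changes. Has2 lies near the line at -3.12 and -3.08, while most filled points lie nearer 0 on the old axis. The genes were named on their young values.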

How the data were processed

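The authors deposited raw read counts for 48794 genes in whole numbers, with 1 column per lung. The submitters' processing notes name bcl2fastq 2.20.0.422, STAR 2.5.2 and 2.5.2b, featureCounts 1.5.1, RSEM 1.3.0 and FastQC 0.11.5, and the builds hg38, GRCh38 and GRCm38, with no roles. The strand setting, the annotation and how reads with several matches were counted are not given in the sources used here. Names and GRCm38 positions came from GENCODE M21.

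edgeR 4.0.16 (R 4.3.3) was fitted to all 137 libraries with 26 groups, so the spread is shared over all groups (111 residual degrees of freedom). Genes passed filterByExpr (count of 10 or more in enough libraries, total of 15 or more), libraries were scaled by TMM, and contrasts were tested by the quasi-likelihood F test with Benjamini-Hochberg adjustment. Standard errors were taken as the size of the log2 change over the root of its F. A 95% interval rests on it. The procedure was tested on simulated counts drawn from the fitted spread. That test cannot speak to outlying lungs or unequal spread between groups, and its outcome is not given here. Depth per library is given with the results and covers counting error only. Replicates are lungs, and each p-value sets a contrast against the spread between lungs, as shared over all groups. Pairs of libraries in a group differed by more than sampling noise.

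The members and the 48 gene lists were chosen with earlier results of these data known. Named genes are a panel of 30, the 10 largest falls and 10 largest rises among called genes whose mean log2 CPM exceeded 1 and whose bleomycin libraries of the 2 days did not overlap, and for each list up to 3 called members with the smallest p, or the 1 with the smallest p where none was called. Other called list members in the text, and Rcan2, were named after their values were seen. Lists are described by counts and medians, with no test of their own. Alternatives were RLE scaling, no filter, DESeq2 1.42.0, the contrasted groups alone, young libraries alone, a clock score covariate and leaving out each lung. Leaving out 2 outlying bleomycin lungs together was chosen after seeing the data. Motifs were searched in RefSeq promoter windows (GRCm38.p6), taking per gene the window nearest the GENCODE start. Shares over all windows count every window instead, so their unit differs from that of the gene sets.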

Additional observations from a re-analysis of the deposited data

Results flagged for a closer look

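Single lungs stood apart from the others of their group in 8 of 188 checks of a gene in a group, where chance alone sets apart about 1 in 20. Eln was highest in 1 bleomycin lung of day 42, at 1379.8 CPM. That lung, replicate 4, was also the highest of its group for Col1a1, Tnc, Timp1, Mmp2 and Apoe, and its removal gave the largest number of genes called in the change. Among saline lungs of day 42, replicate 3 stood low for Fn1 (459.6 CPM) and high for Sftpc (18737 CPM). Saline replicate 4 stood low for Atg9b (0.532 CPM) and high for Krt8 (129.3 CPM) and Ager (2157 CPM). Its alveolar type 1 score (mean log2 CPM of that list) was 9.39, against 8.65 to 8.94 in the others of its group. Without that lung 157 genes differed between saline lungs of the 2 days. With it, the type 1 list had a median saline difference of -0.57 between the days and no gene called. Ighg1, an antibody heavy chain constant region, was highest in 1 saline lung of day 21 at 8.32 CPM and in 1 bleomycin lung of day 21 at 138.5 CPM. Its change, -0.50 with a 95% interval of -3.98 to 2.98, was not called.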

How the results depend on the processing

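The change was called lower in 1.30% and higher in 0.631% of the genes tested. RLE scaling gave 1.27% and 0.707%. The shares were 0.166% and 0.0717% without a filter on low counts, when 36251 genes were tested, and 1.92% and 1.28% with DESeq2. They were 6.57% and 4.8% with the contrasted groups alone, 2.87% and 1.38% with young libraries alone, and 0.593% and 0.326% with the clock covariate. With 1 lung left out they ran from 0.134% to 2.62% lower and from 0.0699% to 1.54% higher. The total called moved by more than 1.5 times for 14 of the 19 lungs. Of the 356 genes, 59.3%, 40.2% and 30.1% were still called without saline day 21 replicates 3, 4 and 5, and 34%, 10.4% and 57.3% without bleomycin day 21 replicates 1, 2 and 3. The share was 51.1%, 25% and 56.5% without saline day 42 replicates 1, 2 and 3, and 57.6%, 34.3%, 23%, 98.6% and 49.2% without bleomycin day 42 replicates 1 to 5, with 766 genes called in all without replicate 4. The cause of these shifts was not tested. None of the 356 had the other sign in a fit that gave it a value, which the fits on the contrasted groups and on young libraries did for 354. As these fits share their lungs with the main one, this does not weigh against the loss of calls.

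The count for bleomycin against saline at day 42 was 2106 with the contrasted groups alone and 693 without both outlying bleomycin lungs, and ran from 698 (without bleomycin day 42 replicate 4) to 1658 with 1 lung left out. It was 905 without bleomycin day 42 replicate 5. Bleomycin lungs of the 2 days differed in 2146 genes without bleomycin day 21 replicate 3, in 2171 without bleomycin day 42 replicate 3 and in up to 3956 with another lung left out. The saline count of 1 was 54 with DESeq2, 27 with the contrasted groups alone, 5 with young libraries alone and 0 to 157 with 1 lung left out, the highest without saline day 42 replicate 4. The young minus old difference had 5 genes called with DESeq2 and 0 in the other fits, and the fit on young libraries alone gives no value for it. The count at day 21 stayed within 5600 to 7395. No paired analysis was possible because numbers in the labels name single lungs and link none across groups. Low counts limit genes near 1 CPM, such as Has2 in saline lungs.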

Other observations

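Interferon response genes lay on 1 side with no gene called in the main fit: 21 of 22 were below 0, the median change was -0.57, and the median effect went from 0.45 at day 21 to -0.11 at day 42. With the contrasted groups alone 9 were called lower (6.57% of genes tested), and with young libraries alone 6 (2.87%). In old lungs 9 of the 22 were called lower (1.61% of all genes), with a median of -1.10. Chemokine genes had a median change of -0.47 with none of 25 called, and 5 of them were still called higher than saline at day 42 (4.73% of all genes). With the contrasted groups alone 7 were called lower and 1 higher (6.57% and 4.8% of genes tested). Markers of NK and cytotoxic cells had a median effect of -1.07 at day 21 and -0.55 at day 42, and B cell markers had -0.70 and -0.23, with none called in the change. T cell genes (median change 0.20) and dendritic cell and antigen presentation genes (-0.10) had none called, nor had the 13 alveolar type 2 (0.09) or 13 alveolar type 1 genes (0.12). Median changes were -0.09 for secretory pathway genes, -0.16 for glycolysis, -0.06 for oxidative phosphorylation, -0.01 for cholesterol and -0.05 for fatty acid synthesis, again with no gene called in the main fit.

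Mesothelial genes had a median effect of -0.27 at day 42 and 0.99 at day 56, when 6 of 8 were called higher than saline, against 7.91% of all genes. Clock genes had 1 of 16 called in the change, Cry2, a repressor of the clock, at 0.48 ± 0.12 (edgeR adjusted p = 0.0278). Red blood cell genes had a median change of 0.95, heart muscle genes 1.52 and fat genes 2.01, and none of these was called. Of 11 heart muscle genes, 11 were called lower than saline at day 21 (17.5% of all genes), 0 at day 42 (2.88%) and 10 at day 56 (8.30%).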
